A study of Mus musculus with 374 samples.

Results

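The genes described here build the membrane and the membrane skeleton of the red cell. They are the 9 genes Slc4a1, Sptb, Ank1, Epb41, Epb42, Rhag, Rhd, Kel and Dmtn, a set defined by gene name. Of these 9, 7 were among the 19829 mouse genes of the count table, and Sptb and Epb41 were not analysed here. The 374 wells of 1 plate held single cells of 1 female C57BL/6 mouse of 10 to 13 weeks, sorted by surface antigens into 5 populations. These were 96 erythroblasts (Ter119+ CD44+, FSC-A mid to high), 44 B lymphocytes (B220+, FSC-A low), 96 granulocytes (Mac1+ Gr1+) and 95 progenitor/stem cells (Lin- Kit+ Sca1+) from bone marrow, and 43 T lymphocytes (CD3+, FSC-A low) from the thymus. No treatment was given in the labels. CEL-seq2 tags the 3′ end of each captured transcript with a cell barcode and a unique molecular identifier (UMI), so that the values are counts of molecules and not of reads.

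The red cell has no internal scaffold, and its shape and strength come from a mesh of spectrin under the membrane. The mesh is held to the lipid bilayer at 2 kinds of junction, one built on ankyrin and the other on actin, protein 4.1 and dematin. Band 3, the anion exchanger, is the main anchor of the ankyrin junction, where the Rh proteins also sit. These genes are known to be transcribed in erythroblasts, which lose CD44 from their surface as they mature.

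Each population came from 1 animal and is 1 sample, so no p-value is given. All intervals are 95% exact intervals, of Poisson type for sums and binomial type for shares and ratios, and they cover counting error only. The UMIs on mouse genes summed to 666728 over the erythroblasts, and to 135808, 200396, 403506 and 834812 over the B lymphocytes, T lymphocytes, granulocytes and progenitor/stem cells. Other populations are given in this order throughout. No barcode was shared between wells. By the transcripts other than the 7 members, 367 of the 374 wells were nearest to the population of their label. The erythroblasts carried the haemoglobin transcripts of their label, with 4 haemoglobin genes taking 23.5% of their UMIs, against 1.21% to 2.83% in the other populations. The 1 erythroblast well nearest to another population was C5, with 466 UMIs in all and no UMI of a member.

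The promoters of the members show what the genes share in sequence beside their function. The windows of Rhag (chr17:40810899-40811198, plus strand), Rhd (chr4:134864286-134864585, plus strand), Epb42 (chr2:121036828-121037127, minus strand) and Kel (chr6:41704276-41704575, minus strand) run from 250 bases before to 50 bases after the transcript start in RefSeq, on build GRCm38.p6. They are printed 5′ to 3′ because GATA and KLF factors are known regulators of red cell genes. Capitals mark the letters AGATAA or its 3 forms with T first, G last or both (the GATA motif) and CCNCNCCC (the KLF motif), searched on both strands.
Rhag: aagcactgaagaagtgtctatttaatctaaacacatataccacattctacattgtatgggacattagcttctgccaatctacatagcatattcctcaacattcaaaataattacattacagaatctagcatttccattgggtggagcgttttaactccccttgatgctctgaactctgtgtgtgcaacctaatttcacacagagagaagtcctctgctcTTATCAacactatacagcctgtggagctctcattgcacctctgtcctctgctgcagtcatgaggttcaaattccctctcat
Rhd: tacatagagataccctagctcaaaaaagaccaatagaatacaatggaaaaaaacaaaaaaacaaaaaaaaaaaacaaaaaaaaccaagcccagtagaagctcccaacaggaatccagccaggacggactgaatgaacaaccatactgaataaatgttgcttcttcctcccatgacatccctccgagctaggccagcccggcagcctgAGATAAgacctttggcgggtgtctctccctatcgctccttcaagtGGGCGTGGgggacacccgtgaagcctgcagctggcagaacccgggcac
Epb42: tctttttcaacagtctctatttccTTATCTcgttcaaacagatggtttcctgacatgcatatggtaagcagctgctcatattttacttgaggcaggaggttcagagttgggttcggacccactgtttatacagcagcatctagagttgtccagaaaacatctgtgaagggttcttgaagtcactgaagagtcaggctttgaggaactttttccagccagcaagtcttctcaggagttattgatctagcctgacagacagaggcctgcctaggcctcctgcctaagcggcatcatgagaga
Kel: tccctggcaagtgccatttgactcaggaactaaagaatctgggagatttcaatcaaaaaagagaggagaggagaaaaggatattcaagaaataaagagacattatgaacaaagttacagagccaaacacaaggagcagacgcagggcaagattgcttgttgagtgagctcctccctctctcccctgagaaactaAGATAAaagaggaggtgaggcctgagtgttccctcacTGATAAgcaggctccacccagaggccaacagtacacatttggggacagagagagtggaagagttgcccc
The letters of the GATA motif occurred in 4 of these 4 windows, against 29.76% of the 32851 windows of the same length in the table. Counted to the leftmost base, the match lay 31 bases before the transcript start in Rhag, 43 before in Rhd and 226 before in Epb42, and Kel had matches at 56 and 19 before. In GENCODE M21 the 5′ end of the Epb42 gene, 121037072, lies inside its window and upstream of the RefSeq start. The 5′ ends of Rhag, 40811126, and Kel, 41704339, also lie inside their windows and upstream of the RefSeq starts. The distances in Epb42, Rhag and Kel thus depend on the annotation. The KLF letters occurred in 1 of the 4, in Rhd at 2 bases after the start, against 49.47% of all windows. With the windows of Sptb and Epb41, whose transcripts were not analysed, the 6 members with an entry have 8 windows, of which 7 held the GATA letters and 4 the KLF letters. A match is a description of letters, and binding was not measured. No window of Slc4a1, Ank1 or Dmtn is shown.

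Slc4a1 encodes band 3, the chloride and bicarbonate exchanger (ENSMUSG00000006574, chr11:102348824-102366203, minus strand, GRCm38, GENCODE M21, as for all gene positions here). It was counted 2857 times over the erythroblasts, and 54, 50, 80 and 131 times over the other 4. As CPM, the counts scaled to a common total of UMIs on mouse genes, this was 4285 (interval 4129 to 4445), and 398, 250, 198 and 157 for the others. The erythroblasts were thus 10.8-fold (8.24 to 14.4) above the B lymphocytes, the highest of the other 4, and no interval of another population reached theirs. The intervals of the B and T lymphocytes overlapped, as did those of the T lymphocytes and granulocytes, and those of the granulocytes and progenitor/stem cells.

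Ankyrin and protein 4.2 tie band 3 to spectrin. Ank1, the ankyrin of the red cell (chr8:22974844-23150497, plus strand), had 40 UMIs in the erythroblasts (60.0 CPM, 42.9 to 81.7), 1 in the granulocytes and none in the other 3 populations. In the B lymphocytes the count of 0 was set to a floor of 3 UMIs, which is 22.1 CPM, and the erythroblasts were 2.72-fold above that floor. The exact upper limit of this count of 0 is 27.2 CPM. The binomial interval of the ratio, with the counting error of both, had a lower limit of 2.11-fold. Plate row F held 18 of the 40 UMIs, and without it the log2 ratio to the floor was 0.96 in place of 1.44. With 41 UMIs in all wells it was below the 50 UMIs asked of a gene in the counts given here. A same-strand pseudogene, Gm15815, overlaps it and had 5 UMIs. Epb42, protein 4.2 (chr2:121017891-121037072, minus strand), had 382 UMIs in the erythroblasts (573 CPM, 517 to 633). It had 8, 7, 10 and 19 UMIs elsewhere, which is a fold of 9.73 (4.89 to 22.7) over the B lymphocytes. The 4 lower populations overlapped one another in their intervals.

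Rhag and Rhd form the Rh complex, in which Rhag is a channel for gas or ammonium and Rhd carries the blood group antigen in humans. Rhag (chr17:40811126-40840754, plus strand) had 489 UMIs in the erythroblasts (733 CPM, 670 to 801), and 7, 9, 11 and 21 elsewhere. The fold over the B lymphocytes was 14.2 (6.85 to 35.6). Rhd (chr4:134864536-134896172, plus strand) had 941 UMIs (1411 CPM, 1323 to 1505), and 24, 22, 41 and 41 elsewhere. Its fold over the B lymphocytes was 7.99 (5.33 to 12.5). In the progenitor/stem cells Rhd stood at 49.1 CPM (35.2 to 66.6), below the intervals of the 3 other populations outside the erythroblasts.

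Kel, the Kell blood group endopeptidase (chr6:41686330-41704339, minus strand), had 395 UMIs in the erythroblasts (592 CPM, 535 to 654) and 8, 5, 11 and 18 elsewhere, a fold of 10.1 (5.05 to 23.5). The gene model Gm37527 overlaps Kel on the same strand and was counted with 94 UMIs of its own, so the count of Kel is uncertain. Dmtn, dematin, an actin-bundling protein of the other junction (chr14:70601263-70636048, minus strand), had 448 UMIs in the erythroblasts (672 CPM, 611 to 737) and 4, 13, 14 and 34 elsewhere. Here the T lymphocytes were the highest of the others, and the fold over them was 10.4 (6.00 to 19.6).

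**Figure D1:**
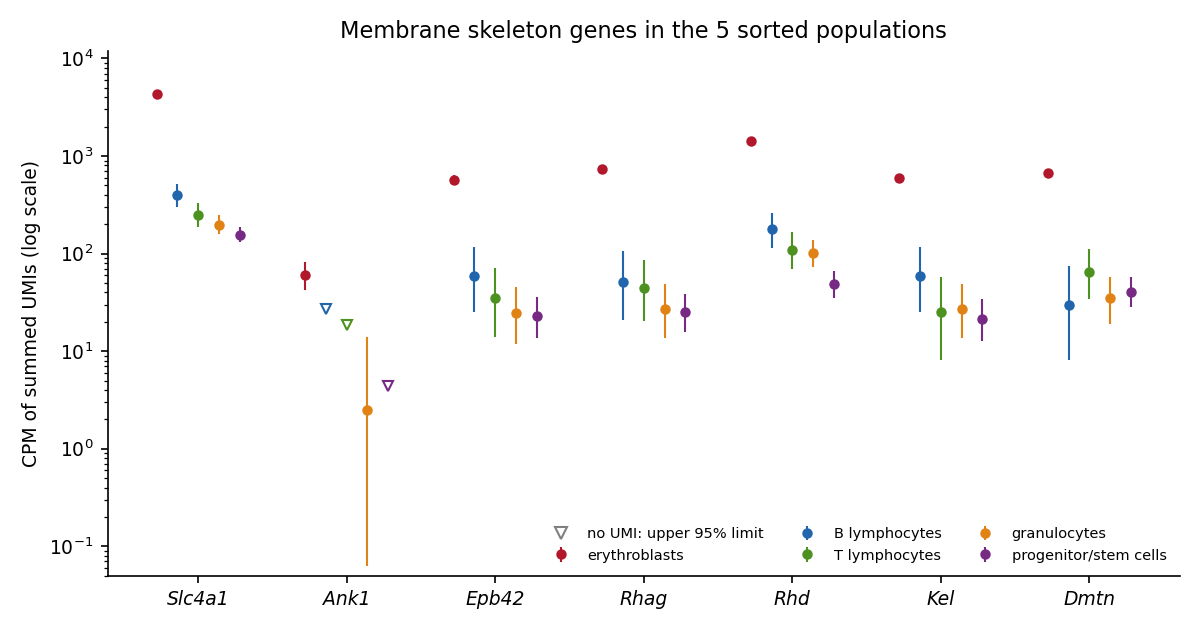
CPM of each member (log axis) in the erythroblasts and the other 4 populations, each point a sum over all wells of a population with its 95% Poisson interval. For 6 of the 7 genes the erythroblasts stand at 573 CPM or more and every other population at 398 CPM or less, and Ank1 was seen outside the erythroblasts as 1 UMI.

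The 6 members that reached 50 UMIs over all wells, which leaves out Ank1, and of which Epb42, Rhag and Kel needed the erythroblasts to do so, were each at least 4-fold higher there than in any other population, a size that 3.91% of the 6317 genes passing that minimum reached. Their median log2 ratio to the highest other population was 3.35, and that of all genes tested was -1.29. Together the members made up 8327 CPM (8110 to 8549) of the erythroblast UMIs and 773, 529, 416 and 316 CPM elsewhere. The erythroblasts held 87.3% (Dmtn) to 97.6% (Ank1) of the UMIs of each member. These shares are not scaled for depth, which was 666728 UMIs in the erythroblasts and 135808 to 834812 in each other population. Slc4a1 took 51.5% of the members' UMIs in the erythroblasts and 47.2% to 51.4% in the others. UMI counts of different genes also depend on how well each 3′ end is captured, and are not compared as levels.

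The wells B19 to B24 stood apart among the B lymphocytes. These 6 wells held 49 of the 105 member UMIs of that population, which is 2598 CPM against 479 CPM in the other 38, and haemoglobin took 8.59% of their UMIs against 1.90%. As they stand apart in the same member counts that are compared, leaving them out is no independent check of the folds. Without them the T lymphocytes became the highest other population for the sum of the members. The log2 ratio of that sum rose from 3.43 to 3.98, and 6 of 6 members were still called. The fold of Kel then rose from 10.1 to 21.7 (12.0 to 43.9, over the granulocytes), that of Epb42 from 9.73 to 16.4 (7.88 to 41.1) and that of Slc4a1 from 10.8 to 17.2 (13.0 to 23.2), both over the T lymphocytes. Rhag went to 16.3, Rhd to 9.71 and Dmtn stayed at 10.4. In bulk sums, fewer cells with a transcript and less of it per cell cannot be told apart, so the wells are given next.

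In the erythroblasts 95 of 96 wells held between 22 and 112 UMIs of the members, with a median over all 96 of 56.0, and C5 held none. The median in the other populations was 1.5 to 2.0 UMIs per well. No member UMI was seen in 10 of 44 B lymphocyte, 2 of 43 T lymphocyte, 21 of 96 granulocyte and 13 of 95 progenitor/stem cell wells. In UMIs per well, not scaled for depth, the erythroblast wells thus did not overlap the bulk of the others. The exceptions were C5 and a pair of progenitor/stem cell wells. The pair was M14 with 28 member UMIs and K6 with 25, while the highest T lymphocyte well, P21, had 21. M14, K6 and P21 were deep wells, with 20193, 14375 and 8059 UMIs on mouse genes. The median was 7959 for progenitor/stem cells and 4347 for T lymphocytes.

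These 3 wells, singled out after their values were seen, differed in composition. M14 held 12 UMIs of Slc4a1, 5 of Dmtn, 4 of Rhd and 3 of Kel. K6 held 7 UMIs of Rhd, 5 each of Epb42 and Kel and 4 of Slc4a1, so that band 3 was not its leading member. P21 held 12 UMIs of Slc4a1 and 4 of Rhd. Haemoglobin took 3.08%, 3.84% and 4.81% of the UMIs of M14, K6 and P21, against a median of 0.991% for progenitor/stem cells and 1.67% for T lymphocytes, and all 3 wells were nearest to their own population by the other genes. The progenitor/stem cell well L11 had 7 member UMIs at 16.7% haemoglobin.

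Per erythroblast well, Slc4a1 was counted at 0 to 59 UMIs (median 28.5) and Rhd at 0 to 24 (median 10.0). The medians of Rhag, Dmtn and Kel were 4.0 each, that of Epb42 was 3.5 and that of Ank1 was 0. To set detection side by side at 1 depth, every well was thinned to 2000 UMIs, which left out 1 erythroblast, 11 B lymphocyte, 1 T lymphocyte, 10 granulocyte and no progenitor/stem cell wells. Slc4a1 was then seen in 95 of 95 erythroblast wells (100%, 96.2 to 100), and Rhd in 93.7% (86.8 to 97.6). Dmtn was seen in 73.7%, Kel in 70.5%, Rhag in 68.4%, Epb42 in 56.8% and Ank1 in 8.42% (3.71 to 15.9). Unthinned, at a median of 6113.5 UMIs per well, these 7 shares ran from 24.0% for Ank1 to 99.0% for Slc4a1 and Rhd.

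In the other populations, Slc4a1 was seen in 26.3% to 42.4% of the thinned wells and Rhd in 6.32% to 36.4%. The other 5 members were seen in at most 18.2%, which was Epb42 in the B lymphocytes. Unthinned, at median depths from 3028.5 to 7959 UMIs per well, Slc4a1 was seen in 51.0% to 67.4% of their wells. For Ank1, 0 of 95 progenitor/stem cell wells had a UMI after thinning, which allows up to 3.81% of wells, below the 8.42% of the erythroblasts though inside their interval.

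Thinned to 2000 UMIs, the variance of the count over its mean was 1.89 for Slc4a1 and 0.996 for Rhd among the 95 erythroblast wells, where counting alone gives about 1. The other 5 members lay between 1.13 and 1.31. The erythroblasts filled plate rows C to F, and over these rows Slc4a1 ranged from 3814 to 4644 CPM and Epb42 from 545 to 608 CPM. Ank1 ranged from 22.2 to 117 CPM over the rows, and 1 well held 15.0% of its UMIs.

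Members were then set beside haemoglobin, the most abundant transcript of red cells, in the other populations. In the erythroblasts there were 35.4 member UMIs for each 1000 haemoglobin UMIs. The other populations had 27.3, 29.9, 27.0 and 26.1. As a multiple of the erythroblast ratio this is 0.772 (0.631 to 0.937), 0.845 (0.690 to 1.02), 0.763 (0.651 to 0.890) and 0.737 (0.649 to 0.833). The 4 intervals overlapped one another, and all but that of the T lymphocytes had an interval below 1.

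By single gene, 24 of the 28 intervals (7 members in 4 populations) held 1, none lay above it and 4 lay below it. The granulocytes gave 1 of these, Slc4a1 (0.706, 0.558 to 0.882). The progenitor/stem cells gave 2, Slc4a1 (0.710, 0.592 to 0.846) and Rhd (0.675, 0.481 to 0.923), and the B lymphocytes 1, Dmtn (0.365, 0.0989 to 0.940). An interval that held 1 does not show an equal ratio, as many rest on few UMIs. At the erythroblast ratio Ank1 would have only 0.904 to 2.58 UMIs in a population, and its counts of 0 still gave intervals that held 1. Dmtn stood at 1.28 in the T lymphocytes and at 1.18 among progenitor/stem cells, with intervals that held 1. The 6 erythroblast markers, 4 haemoglobin genes among them, summed to 242410 CPM in the erythroblasts and 13123 to 28791 CPM in the other populations, with none at 0 in any of the 5. They moved with the members, and their part in the member counts was not tested. Without M14, K6 and P21 the ratio was 0.761 for the T lymphocytes and 0.666 for the progenitor/stem cells.

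**Figure D2:**
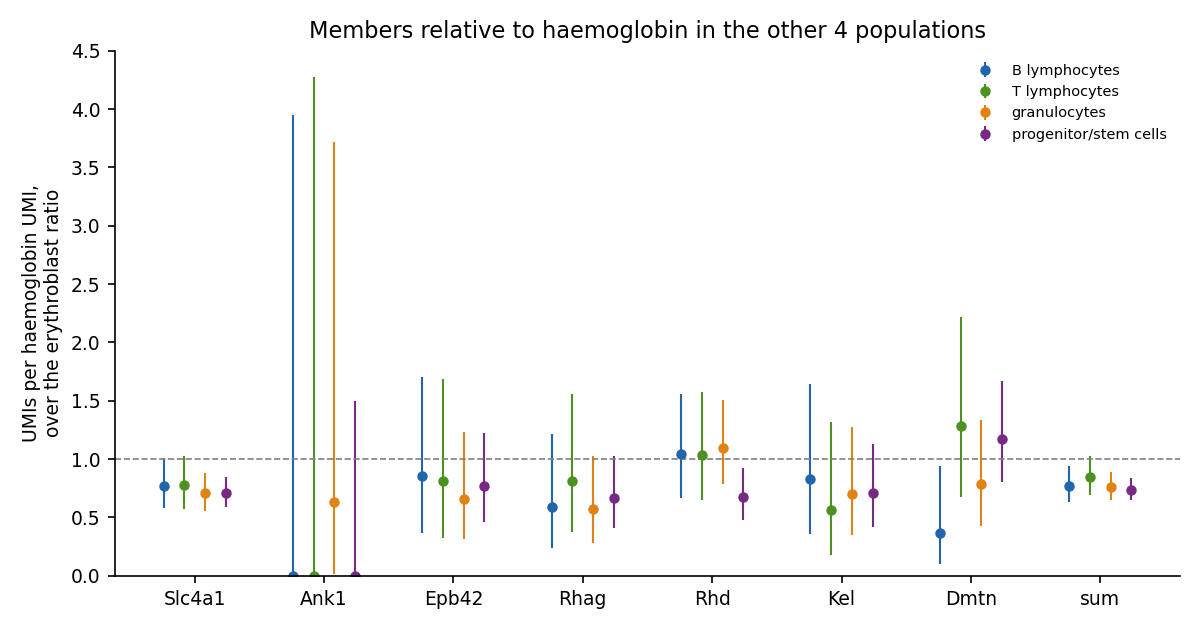
UMIs of each member per haemoglobin UMI in 4 populations, divided by the same ratio in the erythroblasts (dashed line at 1), with 95% conditional binomial intervals. The sum of the members lies at 0.737 to 0.845, and Ank1, with 0 or 1 UMI in each population, has intervals that leave its ratio undetermined.

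CD44 fluorescence was recorded for each erythroblast at the sort, and the wells were put in its order to ask how the membrane genes run along it. The 32 wells of lowest CD44 (976 to 2058 arbitrary units), the 32 in the middle (2060 to 3195) and the 32 of highest CD44 (3202 to 6170) held 169138, 218521 and 279069 UMIs on mouse genes. Median forward scatter was 107500, 111000 and 129500, and median Ter119 7881.5, 6213.5 and 5702.5. Haemoglobin took 33.1%, 26.7% and 15.3% of the UMIs. The ERCC spike-in added to the wells gave 12219, 13574 and 12655 UMIs.

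The direction of the members along CD44 depended on the scale. The summed members stood at 9809, 8855 and 7016 CPM in the low, middle and high wells, a fold of 1.40 (1.31 to 1.49) for low over high. Counted per well, they fell from 61.2 UMIs in the high wells and 60.5 in the middle ones to 51.8 in the low wells, a ratio of 0.847 (0.793 to 0.905). Per 1000 ERCC UMIs they were 136, 143 and 155, a ratio of 0.878 (0.821 to 0.937). The low wells thus held fewer member molecules each and a larger share of members among their molecules. Single wells spread widely, with quartiles of 7897 and 12459 CPM in the low wells and 5893 and 9804 CPM in the high ones, so that the groups overlapped.

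By member, the fold of low over high wells in CPM was 1.61 (1.27 to 2.03) for Dmtn, 1.48 (1.35 to 1.63) for Slc4a1, 1.29 (0.986 to 1.69) for Epb42 and 1.28 (1.02 to 1.59) for Rhag. It was 1.253 (0.980 to 1.60) for Kel, 1.24 (1.05 to 1.46) for Rhd and 1.65 (0.678 to 4.02) for Ank1, which had 12 UMIs in each of these groups. Of the 6 members that could be tested, 1 (Dmtn) passed a fold of 1.5 towards the low wells, with Slc4a1 just under it, and none passed it towards the high wells. Among the 1335 genes that reached 50 UMIs over the low and high wells, 8.84% passed it towards the low wells and 40.0% towards the high wells. Their median log2 ratio was -0.37 and that of the 6 members 0.36, and the distance of 0.73 between these medians is the same under any scaling of the groups by 1 factor. With haemoglobin left out of the total, 6 of 6 members passed the fold towards the low wells, as did 22.1% of the 1335 genes, and the summed members were 1.77-fold higher there. Per ERCC UMI no member passed it in either direction and 5 of the 6 lay below 1, while 1.42% of all genes passed towards the low wells and 70.0% towards the high wells.

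**Figure D3:**
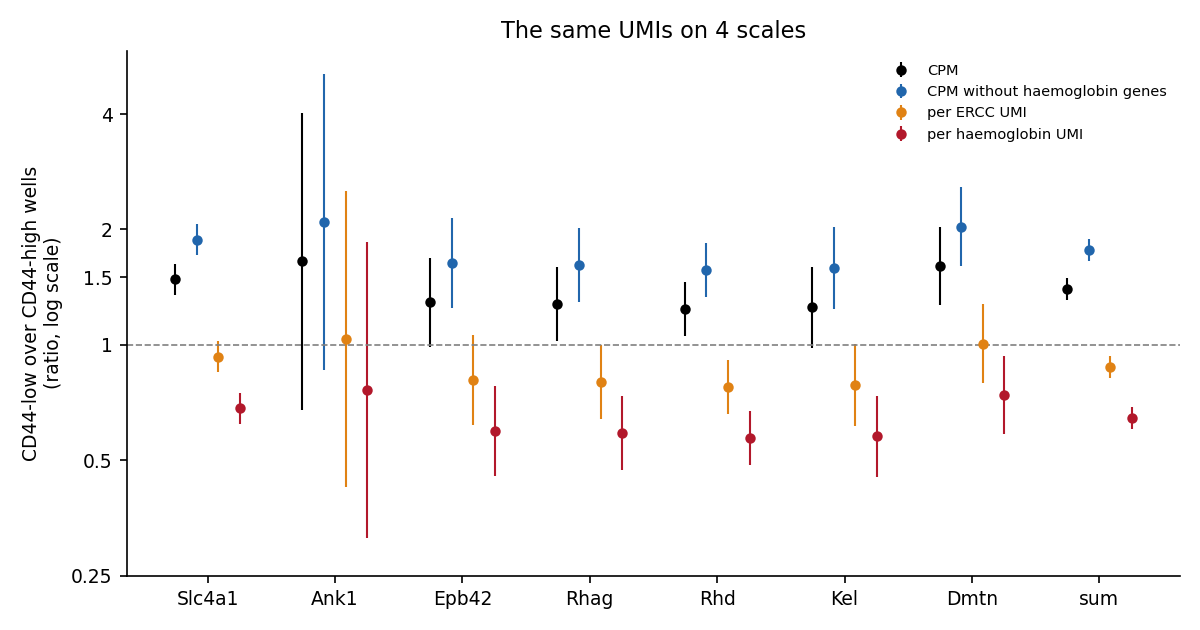
Ratio of each member in the 32 CD44-low over the 32 CD44-high erythroblast wells (log axis, 95% intervals) on 4 scales of the same UMIs. The sum of the members lies at 1.40 in CPM, at 1.77 in CPM without haemoglobin genes, at 0.878 per ERCC UMI and at 0.645 per haemoglobin UMI.

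Against haemoglobin the members ran the other way from their CPM. There were 29.6 member UMIs per 1000 haemoglobin UMIs in the low wells, 33.2 in the middle and 45.9 in the high wells, a ratio of 0.645 (0.603 to 0.688). Rhd had the lowest ratio of the 7 (0.572, 0.486 to 0.671) and Ank1 the highest (0.761, 0.313 to 1.85). Haemoglobin itself was 1.98-fold to 2.59-fold higher in CPM in the low wells over its 4 genes. The haemoglobin-related value of 29.6 in the low wells lay beside the 26.1 to 29.9 of the other populations given above.

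In CPM the members were lowest in the wells of highest CD44. In 12 pools of 8 wells in CD44 order, the first 10 pools lay between 8200 and 10282 CPM and the last 2 at 6442 and 5299 CPM. Slc4a1 lay between 3984 and 5367 CPM in the first 10 pools and at 3200 and 2371 CPM in the last 2. Haemoglobin fell in these pools as well, to 12.8% and 8.93%, from between 22.0% and 36.0% in the others. Without these 16 wells, a choice made after the values were seen, the fold of the summed members was 1.11 (1.03 to 1.21). That of Slc4a1 was 1.14 (1.02 to 1.27) and that of Rhd 1.01 (0.830 to 1.22). The other members stood between 1.05 (Epb42) and 2.00 (Ank1), with intervals that held 1. Leaving out 1 end of an order can shrink any trend along it, so these folds do not place the difference in those wells alone.

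**Figure D4:**
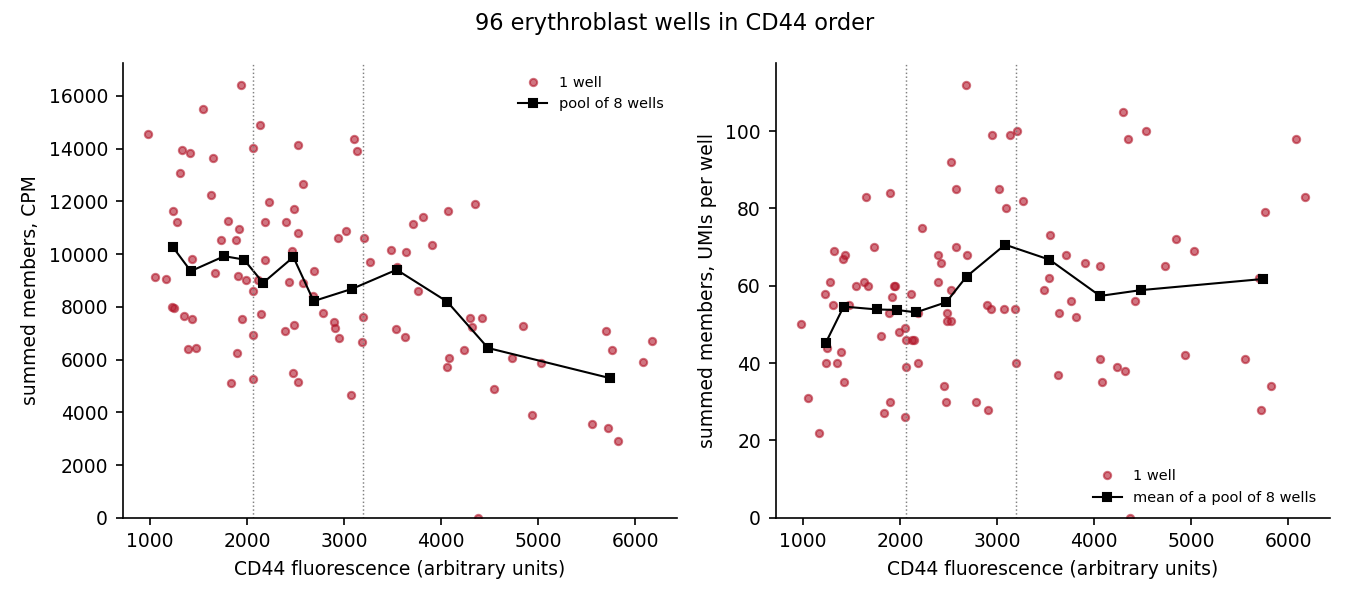
Summed members of each of the 96 erythroblast wells against CD44, as CPM (left) and as UMIs per well (right), with the 12 pools of 8 wells in black, each at its median CD44, and the limits of the 3 groups dotted. The CPM of the 2 pools of highest CD44 is 6442 and 5299, below the other 10, while their 471 and 494 member UMIs lie within the 361 to 565 of the others.

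Over the 96 wells of this plate, the rank correlation of CPM with CD44 was -0.44 for the summed members, -0.44 for Slc4a1, -0.35 for Dmtn, -0.30 for Rhd, -0.26 for Epb42, -0.18 for Kel, -0.087 for Rhag and 0.015 for Ank1. That of the UMIs per well was 0.19 for the sum. These values describe cells of 1 animal that share a library, and depth rose with CD44. Granulocyte markers, 8 genes of which none was at 0, also ran along CD44 in CPM, at 2335, 1661 and 1394 CPM in the low, middle and high wells. In CPM, 4 of the 5 that could be tested passed the fold towards the low wells, against 8.84% of all 1335 genes. Per ERCC UMI these 5 lay between 0.763-fold (S100a9) and 1.47-fold (Lcn2), so that none passed. The summed level of the 8 markers in the granulocytes was 151630 CPM, and their part in the result was not tested.

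Other genes of the red cell surface were counted from a list of 22, of which 21 had a row and 17 at least 50 UMIs. Of these 17, 8 passed the 4-fold limit in the erythroblasts and 4 lay below 1 (Tpm3, Actb, Flot1 and Flot2). Of all 6317 genes tested, 3.91% passed that limit and 81.3% lay below 1. Ermap, Icam4 and Xk reached 50 UMIs only with the erythroblasts. Flot1 and Flot2, at 19 and 12 UMIs in the erythroblasts, reached it through the other populations. Gypc, which encodes glycophorin C, was 9.57-fold (7.00 to 13.4) higher at 344 UMIs. The water channel Aqp1 was 10.4-fold (6.65 to 17.4) and Ermap 15.3-fold (5.91 to 56.4) higher. Icam4, Bsg, Xk, Stom and Slc43a1 also passed. Genes of the actin junction that many cells use did not pass, with Add1 (adducin alpha) at 2.04-fold, Mpp1 at 1.78-fold, Tpm1 at 1.62-fold and Tpm3 at 0.131-fold. Cd47, found on most blood cells, stood at 1.10-fold and Kcnn4 at 1.45-fold.

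Paralogues of the members that serve other cells had few UMIs in the erythroblasts. Of 15 listed, 10 had a row and 6 had enough UMIs, and these 6 lay below 1, as did 81.3% of all 6317 genes tested. Each of the 6 had between 3 and 11 UMIs in the erythroblasts and passed the minimum through the other populations. Their folds below 1 thus follow in part from that minimum. They stood between 0.0161-fold and 0.0959-fold of the highest other population. Sptbn1, the beta spectrin of other cells, had 3 UMIs in the erythroblasts against 279 CPM in the T lymphocytes, and Sptan1, its alpha partner, had 10 against 264 CPM. Add3 had 11 UMIs in the erythroblasts against 384 CPM in the granulocytes.

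**Figure D5:**
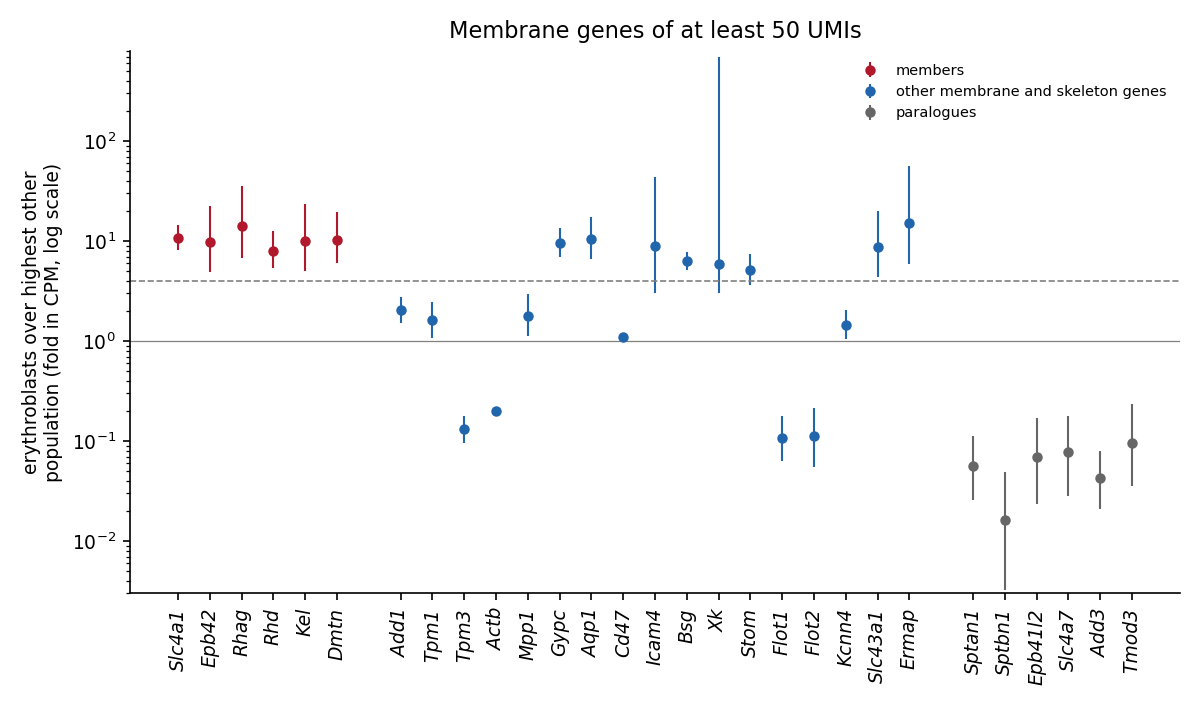
Fold of the erythroblasts over the highest other population in CPM (log axis, 95% intervals) for the 6 members, 17 other membrane genes and 6 paralogues with at least 50 UMIs, with a dashed line at 4-fold. The members lie between 7.99 and 14.2 and the paralogues between 0.0161 and 0.0959. For Xk, with 1 UMI in the B lymphocytes, the point uses the floor of 3 UMIs and the interval that 1 UMI.

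Along CD44, 13 of these other membrane genes could be tested, and none passed towards the low wells and 1 towards the high wells (Xk, 0.610-fold, 0.328 to 1.08). Their median log2 ratio was -0.032. Stom stood at 1.44-fold (1.09 to 1.91), Gypc at 1.37-fold (1.04 to 1.81) and Aqp1 at 0.978-fold (0.834 to 1.14). Of 5 early erythroid genes that could be tested, none passed towards the low wells and 1 towards the high wells (Car1, 0.349-fold). Gata1 stood at 0.711-fold and Tfrc at 0.923-fold, while Epor stood at 1.37-fold and the erythroid factor Klf1 at 1.10-fold. Of 7 cycling genes, none passed towards the low wells and 2 towards the high wells, the replication genes Mcm5 (0.439-fold) and Mcm6 (0.502-fold). The proliferation marker Mki67 stood at 1.47-fold (1.35 to 1.60), just under the limit on the other side, and Cdk1 at 1.17-fold. Across all 1335 genes tested, 8.84% passed towards the low wells and 40.0% towards the high wells. None of the lists in this paragraph exceeded these shares, so their calls are not read as a result about them.

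Likeness was measured as the Pearson correlation of log2(CPM + 10) over the 12 pools in CD44 order, which share 1 library and differ in depth. Of 385 genes with at least 200 UMIs in the erythroblasts, those most like the summed members were Hba-a1 (0.97), Hbb-bt (0.97) and Hbb-bs (0.97). Among the members, Slc4a1 and Dmtn were most like each other (0.88), and Rhd was most like Dmtn (0.84) and Epb42 most like Slc4a1 (0.68). Kel was most like Epb42 (0.36), and Rhag reached at most 0.24, with Kel. The pools held between 361 and 565 member UMIs each.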

How the data were processed

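Single cells of 1 mouse on 1 plate were profiled by CEL-seq2. The authors ran scPipe and deposited its UMI counts, whole numbers for each gene in each well without normalization. The sources used here do not give the aligner version, genome build, annotation or use of strand. Read 1 is described by 2 contradictory layouts in the labels, and the table was taken as it stands. The well in a column name tied it to its sample, which left 9 columns unused because no sample fits them. Symbols and positions came from GENCODE M21, and promoter windows from RefSeq.

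Counts were summed per population, or per group of 32 erythroblast wells in CD44 order, and scaled to CPM on mouse genes. A gene needed at least 50 UMIs, sums under 3 UMIs were set to 3, and a gene was called at 4-fold between populations and 1.5-fold along CD44. Each population is 1 sample, so no test across samples was made. Depth per well, with medians from 3028.5 to 7959 UMIs, limits genes such as Ank1. Named are all members, some list genes with at least 50 UMIs in the erythroblasts, and the genes most like the members. The list genes Sptbn1, Sptan1, Add3, Flot1 and Flot2 are named though below that number. Members and lists were chosen with earlier results of these data known, and some list genes are not reported here and were left out of the counts after the values were seen. TMM factors (edgeR 4.0.16) and size factors (DESeq2 1.42.0) served as alternatives only. The intervals and calls were run on simulated Poisson sums. These have no spread between cells beyond counting, so they checked the calculation only. Python 3.11.15 (pandas, scipy, matplotlib) ran the rest.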

Additional observations from a re-analysis of the deposited data

How the results depend on the processing

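The alternatives changed the denominator, the normalization, the wells used, the limits and the ordering. The number of members called in the erythroblasts was 5 at a fold of 8, which Rhd missed, and 6 under the rest of 18 alternatives. The log2 ratio of the summed members to the highest other population was 3.43. Without wells B19 to B24, which stand apart in the same member counts, it was 3.98. It was 3.77 without haemoglobin in the total, 4.19 with TMM, 4.07 with DESeq2 size factors and 4.60 per ERCC UMI. The 247 genes called there were 417 with TMM, 411 with DESeq2 size factors, 141 at 200 UMIs, 544 at a fold of 2 and 87 at a fold of 8.

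Along CD44 the log2 ratio of the summed members was 0.48. It was 0.82 without haemoglobin, 0.80 with TMM, 0.91 with DESeq2 size factors, 0.37 with the wells split into 2 groups, 0.62 with 4 groups, 0.31 ordered by FSC-A, 0.81 ordered by Ter119, 0.16 without the 16 wells of highest CD44 (chosen after seeing the data) and, reversed, -0.19 per ERCC UMI. The 1 member called became 6 without haemoglobin, with TMM and with DESeq2, 5 at the lower fold limit and by Ter119, and 2 with 4 groups, without plate row F and with no filter. It became 0 at a fold of 2, with 2 groups, by FSC-A, per ERCC UMI and without those 16 wells. The 118 genes called towards low CD44 were 295 without haemoglobin, 285 with TMM, 352 with DESeq2, 26 at 200 UMIs, 649 with no filter, 260 at the lower fold limit, 35 at a fold of 2, 179 by Ter119, 19 per ERCC UMI and 63 without those 16 wells. The 534 towards high CD44 were 98 at 200 UMIs, 2280 with no filter, 935 per ERCC UMI and 243 without those wells.

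Among single members the log2 ratio along CD44 reversed per ERCC UMI for Slc4a1 (-0.10), Epb42 (-0.30), Kel (-0.35), Rhag (-0.32) and Rhd (-0.36). It reversed by FSC-A for Kel (-0.19) and Rhag (-0.0098), and without plate row C for Rhag (-0.054) and Ank1 (-0.035). For Ank1, with few UMIs, it also reversed with 2 groups (-0.11) and 4 groups (-0.020). Beyond the scaling, which moves every gene by 1 factor, the cause was not tested. The members relative to haemoglobin stayed within their intervals under all 4 alternatives. Thinned to 1000 UMIs, 3 members in place of 6 had a UMI in most erythroblast wells. No paired analysis was possible because each population is 1 sample and well numbers pair no samples.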
